A study of Homo sapiens with 10 samples.

Results

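The start sites described here lay in a peak of H3K4me1 and had no H3K4me3 peak nearby. They belonged to 173 of 19229 protein-coding genes on chromosomes 1 to 22, or 0.900% of them. For each gene the most 5′ annotated start site was taken, and a gene was chosen by that site falling inside an H3K4me1 peak while no H3K4me3 peak lay within 2 kb of any of the gene's start sites. The peaks came from MDAMB231, a human breast cancer cell line of mesenchymal character that lacks the estrogen receptor. Chromatin immunoprecipitation with sequencing (ChIP-seq) was performed for 3 histone modifications, H3K4me1, H3K4me3 and H3K27Ac, and open chromatin was mapped by FAIRE-seq, in which nucleosome-free DNA is recovered from crosslinked cells. Each assay had 2 samples, and 1 input sample served the ChIP assays and 1 the FAIRE assay. The authors deposited a single peak list per assay from combined samples, so no value below has a replicate error.

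H3K4me3 is laid down at active promoters, in particular at those rich in CpG dinucleotides, while H3K4me1 is best known from enhancers and from the flanks of active promoters. H3K27Ac marks active promoters and active enhancers alike, and a FAIRE peak marks DNA that is accessible to transcription factors. A start site within an H3K4me1 peak that has no H3K4me3 thus carries the methylation usually found at enhancers.

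Promoter sequences are shown for 3 of the genes with the highest H3K27Ac score at the start site, for the 2 genes with the tallest FAIRE peaks among those that hold AP-1 letters and for 2 genes with neither H3K27Ac nor FAIRE. Each runs from 250 bases before the start site to 50 bases into the gene, read 5′ to 3′ on the gene's strand from GRCh37. Capitals mark 4 short motifs found on either strand. They were TATAAA (the TATA box letters), TGANTCA (for AP-1), GGAATG (the letters bound by TEAD factors) and GGGCGG (the GC box). TGANTCA, with any base at N, is a looser form of the letters bound by AP-1. The sequence without capitals holds none of the 4 motifs.
TMA7B: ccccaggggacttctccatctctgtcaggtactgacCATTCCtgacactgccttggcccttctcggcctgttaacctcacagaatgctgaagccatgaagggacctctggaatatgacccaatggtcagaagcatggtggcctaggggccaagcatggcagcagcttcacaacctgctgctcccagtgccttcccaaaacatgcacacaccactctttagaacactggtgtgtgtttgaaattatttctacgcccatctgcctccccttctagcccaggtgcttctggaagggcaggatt
KISS1: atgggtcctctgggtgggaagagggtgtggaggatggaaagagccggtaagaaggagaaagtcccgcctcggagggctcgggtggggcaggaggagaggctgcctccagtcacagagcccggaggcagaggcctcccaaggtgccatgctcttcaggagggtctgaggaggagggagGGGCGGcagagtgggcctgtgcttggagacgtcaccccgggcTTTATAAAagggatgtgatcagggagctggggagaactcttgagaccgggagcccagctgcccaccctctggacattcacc
BTBD19: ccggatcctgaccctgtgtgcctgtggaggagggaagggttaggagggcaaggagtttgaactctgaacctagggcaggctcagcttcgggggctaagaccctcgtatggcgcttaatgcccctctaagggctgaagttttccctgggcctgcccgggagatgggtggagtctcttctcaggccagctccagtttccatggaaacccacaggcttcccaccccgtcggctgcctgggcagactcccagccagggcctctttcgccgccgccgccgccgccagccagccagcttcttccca
CPA4: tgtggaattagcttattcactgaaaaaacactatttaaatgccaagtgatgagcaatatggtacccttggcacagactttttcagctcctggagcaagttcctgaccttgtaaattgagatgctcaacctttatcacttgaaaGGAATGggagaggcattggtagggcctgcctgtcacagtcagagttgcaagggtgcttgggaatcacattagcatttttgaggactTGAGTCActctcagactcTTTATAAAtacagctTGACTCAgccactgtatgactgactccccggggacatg
TCP11: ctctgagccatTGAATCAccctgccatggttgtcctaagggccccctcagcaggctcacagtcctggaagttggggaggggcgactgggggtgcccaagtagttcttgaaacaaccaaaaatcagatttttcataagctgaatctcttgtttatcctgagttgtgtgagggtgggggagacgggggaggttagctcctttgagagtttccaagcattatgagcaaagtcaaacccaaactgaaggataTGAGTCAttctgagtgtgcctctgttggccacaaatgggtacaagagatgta
MUC2: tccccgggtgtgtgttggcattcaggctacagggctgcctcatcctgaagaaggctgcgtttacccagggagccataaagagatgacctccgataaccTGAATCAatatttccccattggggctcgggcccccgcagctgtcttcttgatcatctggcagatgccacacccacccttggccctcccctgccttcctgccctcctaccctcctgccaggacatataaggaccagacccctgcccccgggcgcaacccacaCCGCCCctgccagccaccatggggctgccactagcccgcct
ART4: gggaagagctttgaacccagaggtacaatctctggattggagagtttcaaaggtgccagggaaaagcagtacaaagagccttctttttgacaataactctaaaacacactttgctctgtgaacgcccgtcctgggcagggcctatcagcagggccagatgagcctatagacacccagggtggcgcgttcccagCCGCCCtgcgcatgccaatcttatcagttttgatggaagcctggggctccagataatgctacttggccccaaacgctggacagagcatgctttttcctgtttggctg
TMA7B, a relative of a translation machinery gene, is on the plus strand at chr22:40356151-40356450, inside the gene GRAP2. KISS1, which encodes the precursor of the kisspeptins and has been described as a metastasis suppressor, is on the minus strand at chr1:204165570-204165869. Its window held a GC box and a pair of overlapping TATAAA matches on opposite strands, the more distant of them starting 31 bases before the start site (position -31). BTBD19, a gene for a BTB domain protein, is on the plus strand at chr1:45273945-45274244, and had the most CpG dinucleotides of the 7 sequences, 13. CPA4, a carboxypeptidase gene, is on the plus strand at chr7:129932724-129933023 and TCP11, a gene known from sperm, on the minus strand at chr6:35116338-35116637. Both held 2 AP-1 matches, and they were chosen for display because they hold them, while ASAP1 and PTPRH, with taller FAIRE peaks, hold none. MUC2, the gel-forming mucin of the intestine, is on the plus strand at chr11:1074625-1074924, with an AP-1 match starting at position -152. That match reads TGAATCA, as does 1 of the 2 in TCP11. ART4, which carries the Dombrock blood group, is on the minus strand at chr12:14996411-14996710, inside C12orf60.

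A peak was counted at a start site when it shared at least 1 base with the window of 500 bp on each side. An H3K27Ac peak was present at 120 of the 173 start sites, or 69.4% (95% Wilson interval 62.1% to 75.8%), against a background of 57.3% over all 19229 coding genes. A FAIRE peak was present at 69 start sites, or 39.9% (32.9% to 47.3%), against 28.5% over all coding genes. Both were found at 62 start sites (35.8%, background 27.5%), and neither at 46 (26.6%, background 41.7%). H3K27Ac alone was found at 58 start sites (33.5%, background 29.8%) and FAIRE alone at 7 (4.05%, background 0.988%). The intervals cover counting error over genes only, and genes that share a peak are not independent.

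The background mixes promoters of very different kinds, so the coding genes were divided by the same marks. Of these, 12322 had H3K4me3 within 2 kb of any start site and no H3K4me1 peak at the most 5′ one. In this class 81.2% had H3K27Ac (80.5% to 81.9%) and 40.0% had FAIRE (39.1% to 40.9%). Among the 891 genes with H3K4me3 whose most 5′ start site lay in an H3K4me1 peak as well, 91.8% had H3K27Ac and 45.6% had FAIRE. H3K27Ac and FAIRE were counted at the most 5′ start site, and H3K4me3 can lie at another one. H3K4me3 covered the most 5′ start base for 87.9% of the 13213 genes of both classes, and for ESR1 it lay 106263 bp away. Start sites called with H3K4me3 only, or with H3K4me3 and H3K4me1, are the most 5′ ones of these genes. Of the 5843 genes with no H3K4me3 within 2 kb and no H3K4me1 peak at the most 5′ start site, called genes with neither mark below, 1.35% had H3K27Ac and 1.18% had FAIRE. Other start sites of these genes can lie in an H3K4me1 peak, as the canonical one did for 13. In this window and over promoters of any CpG content, the H3K27Ac interval of the H3K4me1 start sites without H3K4me3 lay below those of both classes with H3K4me3, while the FAIRE intervals overlapped. Within 2 kb on each side the H3K27Ac share was 78.6% at these start sites, 83.6% with H3K4me3 only and 93.8% with H3K4me3 and H3K4me1. Among CpG-poor promoters, given below, the share with H3K4me3 only was the lower one. That class includes most 5′ promoters far from the gene's H3K4me3, and it was not limited to those near it. Where H3K27Ac was present, FAIRE accompanied it at 51.7% of the H3K4me1 start sites (42.8% to 60.4%). For genes with H3K4me3 only it did so at 48.0% of the most 5′ start sites. Where H3K27Ac was missing, FAIRE was found at 7 of 53 (13.2%) and at 5.35%, respectively, and at 15.1% for genes with H3K4me3 and H3K4me1.

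**Figure D1:**
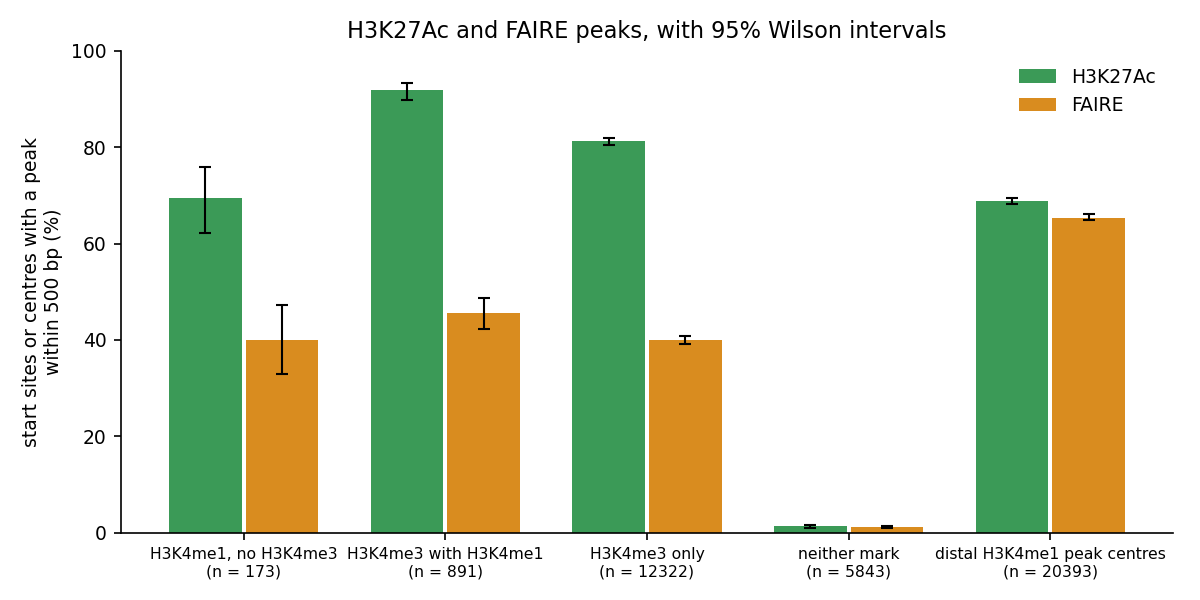
Share of start sites with an H3K27Ac or FAIRE peak within 500 bp, for 4 classes of coding genes and for the centres of H3K4me1 peaks away from coding start sites and H3K4me3. Bars are percentages and whiskers are 95% Wilson intervals. The H3K4me1 start sites without H3K4me3 stand at 69.4% for H3K27Ac and 39.9% for FAIRE.

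The width of the window mattered for FAIRE. With 2 kb on each side, FAIRE was found at 65.9% of the H3K4me1 start sites, and at the start base itself at 26.6%. The share with neither H3K27Ac nor FAIRE was 12.7% in the wider window. For genes with H3K4me3 only, the FAIRE share was 46.4% within 2 kb and 34.5% at the start base, and for genes with H3K4me3 and H3K4me1 it was 65.0% and 34.3%. A FAIRE peak lay elsewhere in the H3K4me1 peak, outside the window of 500 bp, for 57 genes (32.9%), and an H3K27Ac peak did so for 17 (9.83%). Only 22 genes (12.7%) had neither an H3K27Ac nor a FAIRE peak anywhere in the H3K4me1 peak or in the window.

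The scores of the H3K27Ac peaks varied widely. The deposited score of a ChIP-seq peak is the log10 of the p-value multiplied by minus 10, it grows with width and depth, and many of the strongest peaks share the value 3100. Over the 120 acetylated start sites the score ran from 58.2 to 3202, with a median of 741 and quartiles of 205 and 2220. The median was 1660 at start sites with H3K4me3 and H3K4me1, 1300 at those with H3K4me3 only, 504 at the centres of distal H3K4me1 peaks and 337 at the acetylated start sites of genes with neither mark. Scores of 3100 or more were found at 23 of the 120 (19.2%), against 13.2% of the acetylated start sites with H3K4me3 only and 25.9% of those with H3K4me3 and H3K4me1. FAIRE heights had a median of 70.5, in the units of the peak caller, the same as at start sites with H3K4me3 and H3K4me1, with 69.3 at the distal centres, 68.0 at start sites with H3K4me3 only and 61.1 in the complete list.

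The H3K4me1 peaks themselves chose the genes and are given as a description. Their scores ran from 50.3 to 856, with a median of 124 and quartiles of 85.9 and 229, and their median width was 4302 bp. The complete list of 26771 peaks had a median score of 114 and a median width of 3041 bp, and a wide peak is more likely to reach a start site. At the start sites with H3K27Ac the median H3K4me1 score was 166, and at those without it 108. The weakest were SPX, the gene of the peptide hormone spexin, with a score of 50.3, and C22orf15 with 50.5. The genes closest to the limit of 2 kb were NWD1, a NACHT and WD repeat gene, with the nearest H3K4me3 peak at 2265 bp from a start site, and FAM187A at 2650 bp. Left out on the other side of it were KISS1R, the receptor of the kisspeptins, and TMEM190, each with an H3K4me3 peak at 1824 bp.

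**Figure D2:**
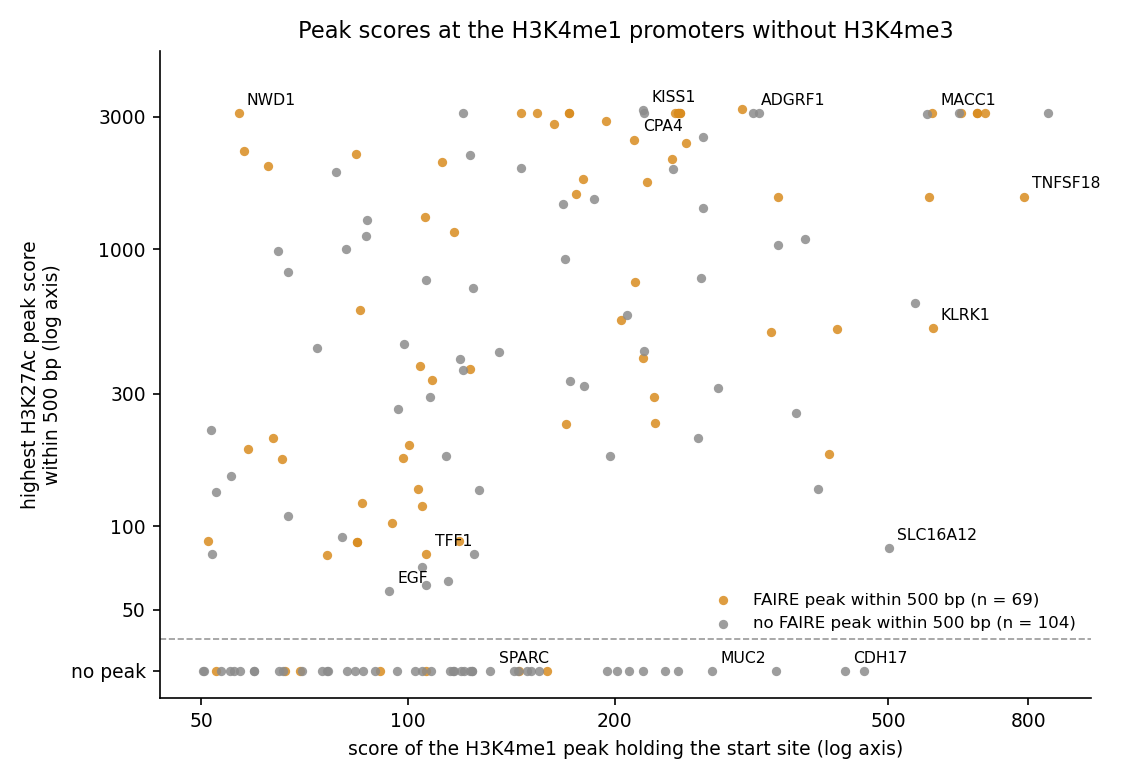
Score of the H3K4me1 peak that holds the start site against the highest H3K27Ac score within 500 bp for the 173 genes, both on log axes, with genes that had no H3K27Ac peak in the strip below the dashed line. Orange points are the 69 genes with a FAIRE peak within 500 bp and grey points the 104 without. Scores pile up at 3100, and NWD1 reaches that value with an H3K4me1 score of 56.7.

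The 173 start sites fell in 167 H3K4me1 peaks, 6 of which held a pair of genes. These pairs were BTBD19 with DYNLT4, HRCT1 with SPAAR, KRTAP2-3 with KRTAP2-4, and RAET1E, ZNF474 and TMEM272 each with a gene that has no symbol of its own. From the start site the H3K4me1 peak reached a median of 1863 bp upstream and 1739 bp into the gene. H3K27Ac coverage was highest just upstream, at positions -200 and -100, where 62.4% of the genes were covered, and FAIRE coverage at position -100, with 28.3%. At 1 kb upstream 48.6% were covered by H3K27Ac and at 1 kb downstream 41.0%. H3K4me1, which covers every start site by choice, was at 72.8% and 68.2% there. How far this choice shapes the H3K27Ac and FAIRE coverage was not tested.

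**Figure D3:**
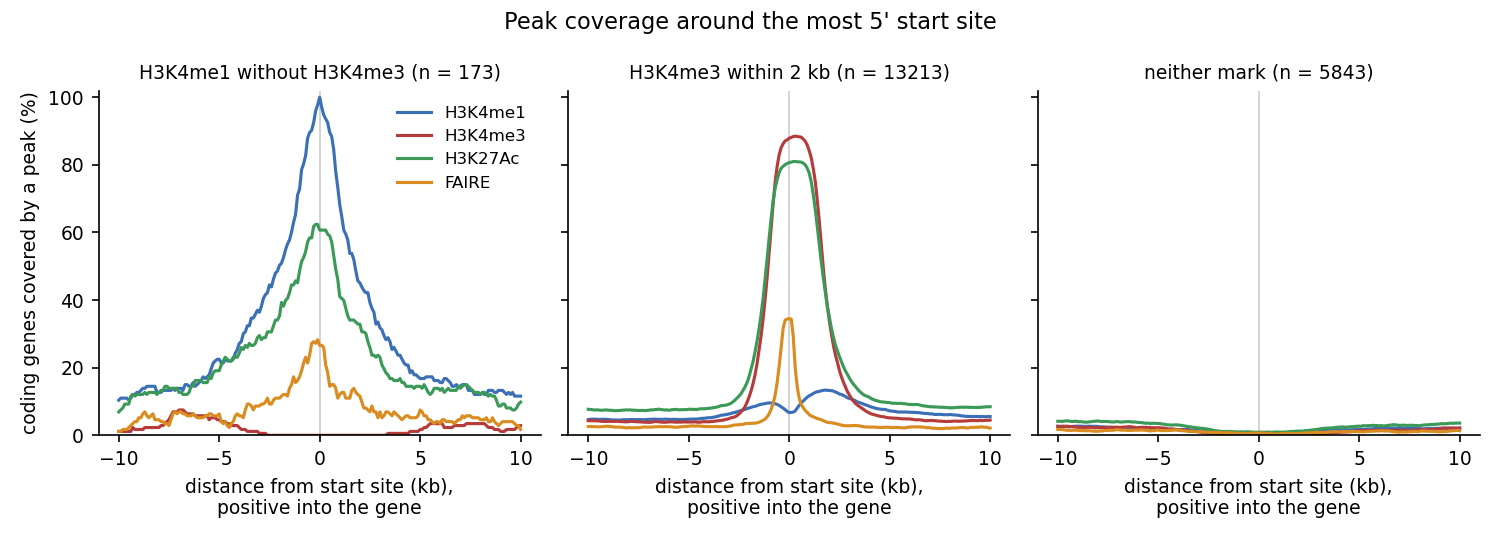
Percentage of coding genes covered by a peak of each list at distances of up to 10 kb from the most 5′ start site, oriented by strand. The left panel holds the 173 genes chosen by H3K4me1 without H3K4me3, so its H3K4me1 line reaches 100% and its H3K4me3 line 0 by choice. The middle panel holds 13213 genes with H3K4me3 within 2 kb and the right panel 5843 with neither mark. In the left panel the H3K27Ac and FAIRE lines peak near the start site, where the choice of genes placed H3K4me1.

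Distances to an H3K4me3 peak are over 2 kb by choice in both classes without it. The nearest H3K4me3 peak was at a median of 31037 bp from any start site of the gene, with quartiles of 13463 and 69058 bp, against a median of 49338 bp for the genes with neither mark. The nearest coding start site that had H3K4me3 was at a median of 53308 bp, against 78985 bp for the genes with neither mark. Within 5 kb of such a start site lay 7 genes (4.05%), against 2.62% of the genes with neither mark, and the H3K27Ac peak reached such a start site for 4, which were BTBD19, DYNLT4, UCN2 and FAM187A. Leaving out the 7 gave an H3K27Ac share of 69.3%. The start site lay inside another coding gene for 45 genes (26.0%), against 20.8% of all coding genes and 18.8% of those with neither mark. The canonical transcript's start site was the most 5′ one for 95 genes (54.9%), against 45.2% of all coding genes and 61.4% with neither mark. It lay in an H3K4me1 peak for 147 genes (85.0%), for those 95 by choice.

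The same question was asked of the peaks. H3K27Ac shared sequence with 132 of the 167 H3K4me1 peaks that held one of these start sites (79.0%, 72.3% to 84.5%). The comparison was with 20393 distal H3K4me1 peaks, which held no coding start site and had no H3K4me3 peak within 2 kb, and 69.6% of these shared sequence with H3K27Ac. The sets are unlike, as peaks holding a start site were kept from H3K4me3 only within 2 kb of the gene's start sites. The peak of DYNLT4 reached 5406 bp upstream and 6316 bp downstream, with H3K4me3 at 4494 bp. The distal peaks had a median width of 2887 bp, and the share rose with width, so the peaks were divided at the quartiles of the distal peaks. Among the widest peaks, over 4089 bp, 89.7% of those holding a start site (81.5% to 94.5%) and 92.9% of the distal ones had H3K27Ac. Among the narrowest, up to 2208 bp, H3K27Ac was found in 14 of 23 (60.9%, 40.8% to 77.8%) and in 41.0% of the distal ones. In the classes between, it was found in 27 of 36 against 79.9% and in 13 of 21 (61.9%) against 64.4%, so the share in peaks holding a start site was the higher one in the narrowest class alone. FAIRE shared sequence with 72.5% of the peaks holding a start site and with 72.2% of the distal peaks. In the wider classes the FAIRE share was lower for peaks holding a start site, with 83.9% (74.8% to 90.2%) against 92.6% among the widest and 61.1% (44.9% to 75.2%) against 80.0% in the class below. In the narrower classes it was 71.4% (15 of 21) against 66.8% and 47.8% (11 of 23) against 49.5%. At the same position in both kinds, a FAIRE peak covered the centre of 36.5% of the peaks holding a start site and 51.8% of the distal ones, and 31.0% against 43.5% among the widest.

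The promoters were poor in CpG. The ratio of observed to expected CpG over the 300 bases had a median of 0.224, against 0.700 for all coding genes, 0.806 for those with H3K4me3 only and 0.282 for those with neither mark. It was under 0.5 at 153 of the 173 promoters (88.4%), against 35.9% of all coding genes and 72.0% of those with neither mark. The median GC content was 50.3%, and 52.0% for genes with neither mark. Exceptions with a high ratio included ASAP1 at 1.06 and BNC1, a zinc finger gene of keratinocytes and germ cells, at 1.04. The median ratio was 0.225 at the acetylated start sites and 0.224 at the others. Among CpG-poor promoters only, H3K27Ac was present at 70.6% of the H3K4me1 start sites (62.9% to 77.2%). For genes with H3K4me3 near any start site, it was present at 88.2% of the 340 most 5′ promoters with H3K4me1 and at 49.0% of the 2207 without. It was present at 1.47% of the 4205 with neither mark. FAIRE was present at 41.2%, 46.5%, 18.8% and 1.43% of these classes, in that order. The classes with H3K4me3 include most 5′ promoters far from the gene's H3K4me3, such as that of ESR1 (ratio 0.414). How many lay so far was not counted among CpG-poor promoters.

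**Figure D4:**
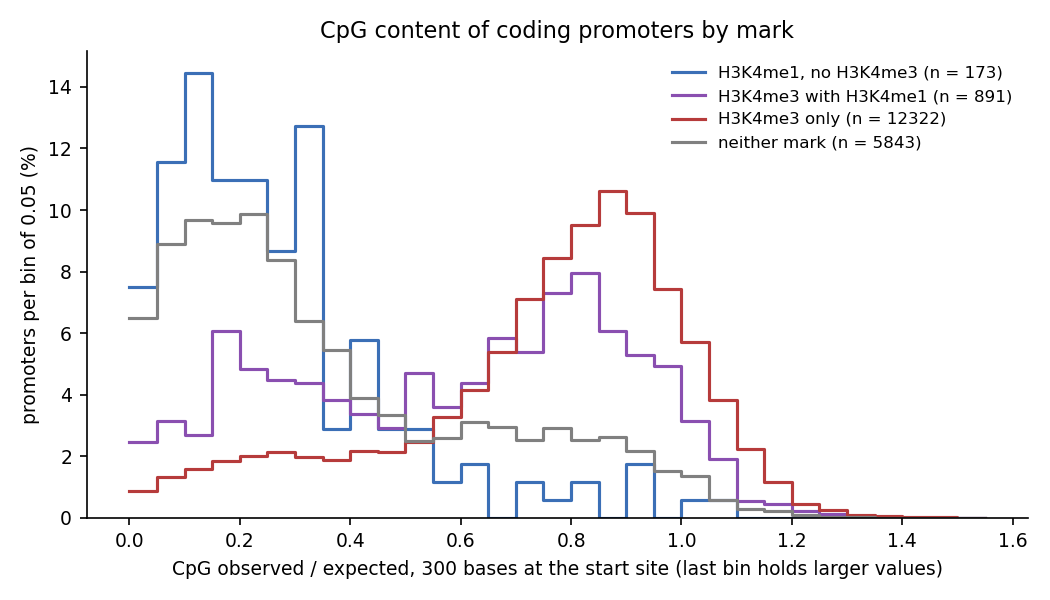
Distribution of the CpG observed to expected ratio over 300 bases at the start site for 4 classes of coding genes, as the percentage of promoters per bin of 0.05. The 173 H3K4me1 promoters without H3K4me3 have a median of 0.224, and those with H3K4me3 only have a median of 0.806.

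The AP-1 letters TGANTCA were in 39 of the 173 promoters (22.5%, 17.0% to 29.3%). They were in 6.38% of all coding promoters of the same length, in 8.88% of those with neither mark and in 30.2% of windows of 300 bases at the centres of distal H3K4me1 peaks. AP-1 is a family of FOS and JUN dimers that binds many enhancers of mesenchymal and invasive cells. Among CpG-poor promoters the shares were 24.2% (18.1% to 31.5%) at the H3K4me1 start sites, 17.1% (13.4% to 21.4%) with H3K4me3 and H3K4me1, 10.8% with H3K4me3 only and 11.0% with neither mark. The letters were in 25 of the 69 promoters with a FAIRE peak (36.2%, 25.9% to 48.0%) and in 14 of the 104 without (13.5%, 8.19% to 21.3%). This was not particular to AP-1, as the TATA letters were in 23.2% (14.8% to 34.4%) with FAIRE and 7.69% (3.95% to 14.4%) without, and the GC box in 10.1% and 27.9%. The CPA4 and TCP11 sequences above show where AP-1 letters lie and were picked for having them. In CPA4 the AP-1 matches start 21 bases before and 12 bases after the start site (positions -21 and 12). A match is a run of letters and not a measured binding site. Matches with C or G at the middle base were not counted apart from the others.

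The TEAD letters GGAATG were in 23.7% of the promoters (18.0% to 30.6%), against 12.8% of all coding promoters and 20.9% of the distal centres. Among CpG-poor promoters they were in 22.9% (16.9% to 30.1%) of the H3K4me1 promoters and in 17.5% (16.6% to 18.4%) of all coding promoters, and these intervals overlap. TEAD factors carry out transcription downstream of the Hippo pathway. The TATA letters were in 13.9% (9.50% to 19.8%), against 11.0% of all coding promoters, 20.3% of those with neither mark and 24.6% of the distal centres. Among CpG-poor promoters they were in 14.4% (9.69% to 20.8%) of the H3K4me1 promoters and in 20.1% of all coding promoters. The GC box was in 20.8% (15.4% to 27.5%), against 52.4% of all coding promoters, 27.8% of those with neither mark and 3.01% of the distal centres. It was in 14.4% of the CpG-poor H3K4me1 promoters and in 16.2% of all CpG-poor coding promoters.

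The genes with the highest H3K27Ac scores were of unlike function. TMA7B (ENSG00000225528) had a score of 3202 and KISS1 (ENSG00000170498) 3177, while BTBD19, DYNLT4, KRTAP2-3 and KRTAP2-4 stood at 3100 and were ranked by width. In all, 23 of the 120 acetylated start sites had a score of 3100 or more. Scores pile up at 3100, so the order among these 23 is not read as an order of strength. The KISS1 start site, at position 204165619 on chromosome 1, lay in an H3K27Ac peak of 5651 bp, and the nearest FAIRE peak was 2145 bp away. BTBD19 (ENSG00000222009) and DYNLT4, a dynein light chain gene (ENSG00000188396), share an H3K27Ac peak of 12400 bp that also covers a start site with H3K4me3 at 2730 bp from DYNLT4. KRTAP2-3 (ENSG00000212724) and KRTAP2-4 (ENSG00000213417) encode proteins of the hair matrix, and on chromosome 17 they share an H3K4me1 peak of 10222 bp. Each had a FAIRE peak over the start site, with heights of 111 and 113. From KRTAP2-3 to the nearest H3K4me3 peak it was 239649 bp. These genes belong to a family of similar copies, and whether reads of the copies could be told apart was not tested.

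Of the 69 start sites with FAIRE, 62 had H3K27Ac too, and over all coding genes 5281 of 5471 did. FAIRE without H3K27Ac was at 4.05% of the 173 start sites, against 0.988% of all coding genes. The tallest FAIRE peaks, given here, were at start sites with H3K27Ac. ASAP1 (ENSG00000153317), a regulator of the actin cytoskeleton and of cell invasion, had a FAIRE height of 148 and an H3K27Ac score of 2059. It has 16 annotated transcripts, and an H3K4me3 peak lay 14784 bp from the nearest of their start sites. PTPRH (ENSG00000080031), a receptor tyrosine phosphatase, followed with a height of 144, then CPA4 (ENSG00000128510) with 136 and TCP11 (ENSG00000124678) with 134. KLRK1 (ENSG00000213809), the NKG2D receptor of natural killer cells, had a FAIRE height of 122 beside an H3K4me1 score of 581 and an H3K27Ac score of 517. SPATA12 (ENSG00000186451), a gene named for spermatogenesis, had a height of 121 and lies inside ARHGEF3.

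Other start sites had a strong H3K4me1 peak and neither H3K27Ac nor FAIRE within 500 bp. Among those not named by clone or identifier, the highest H3K4me1 score was 433 at CDH17 (ENSG00000079112), the liver and intestine cadherin, where the start site lies 74 bp from the edge of the peak and H3K27Ac and FAIRE peaks begin 792 and 988 bp away. ZNF366 (ENSG00000178175), a zinc finger gene expressed in dendritic cells, followed with 344 and MUC2 (ENSG00000198788) with 277. The nearest H3K27Ac peak was 12723 bp from MUC2 and 1180 bp from ZNF366. ART4 (ENSG00000111339) scored 248, TMEM212 (ENSG00000186329), a transmembrane protein gene, 237, and BLID (ENSG00000259571), a cell death inducer, 210. For BLID the nearest H3K27Ac peak was 16941 bp away, and for ART4 553 bp, just outside the window.

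The 173 genes were set against 28 kinds defined by gene symbol, of which 16 had a member. The reference for each kind was its share among the 6016 coding genes with no H3K4me3 within 2 kb, of which 173 (2.88%) had the H3K4me1 start site. G protein-coupled receptors recognised by symbol gave 6 of 111 (5.41%) and zinc finger genes with ZNF symbols 3 of 58 (5.17%). Each kind holds only the symbols it names, so the relaxin receptor gene RXFP1 and the zinc finger gene BNC1 lay outside these counts. Keratins and keratin-associated proteins gave 4 of 144 (2.78%) and immune surface receptors 3 of 147 (2.04%). Olfactory receptors gave 0 of 411. Homeobox, forkhead, SOX and related transcription factors gave 0 of 108, clustered protocadherins 0 of 39 and drug-metabolising enzymes of the P450 and related families 0 of 76. Genes with uncharacterised symbols gave 15 of 298 (5.03%), and genes named only by clone or identifier 18 of 309 (5.83%). Ribosomal proteins, most of which had H3K4me3, gave none. These are counts of few genes, read beside the 2.88% with no test.

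**Figure D5:**
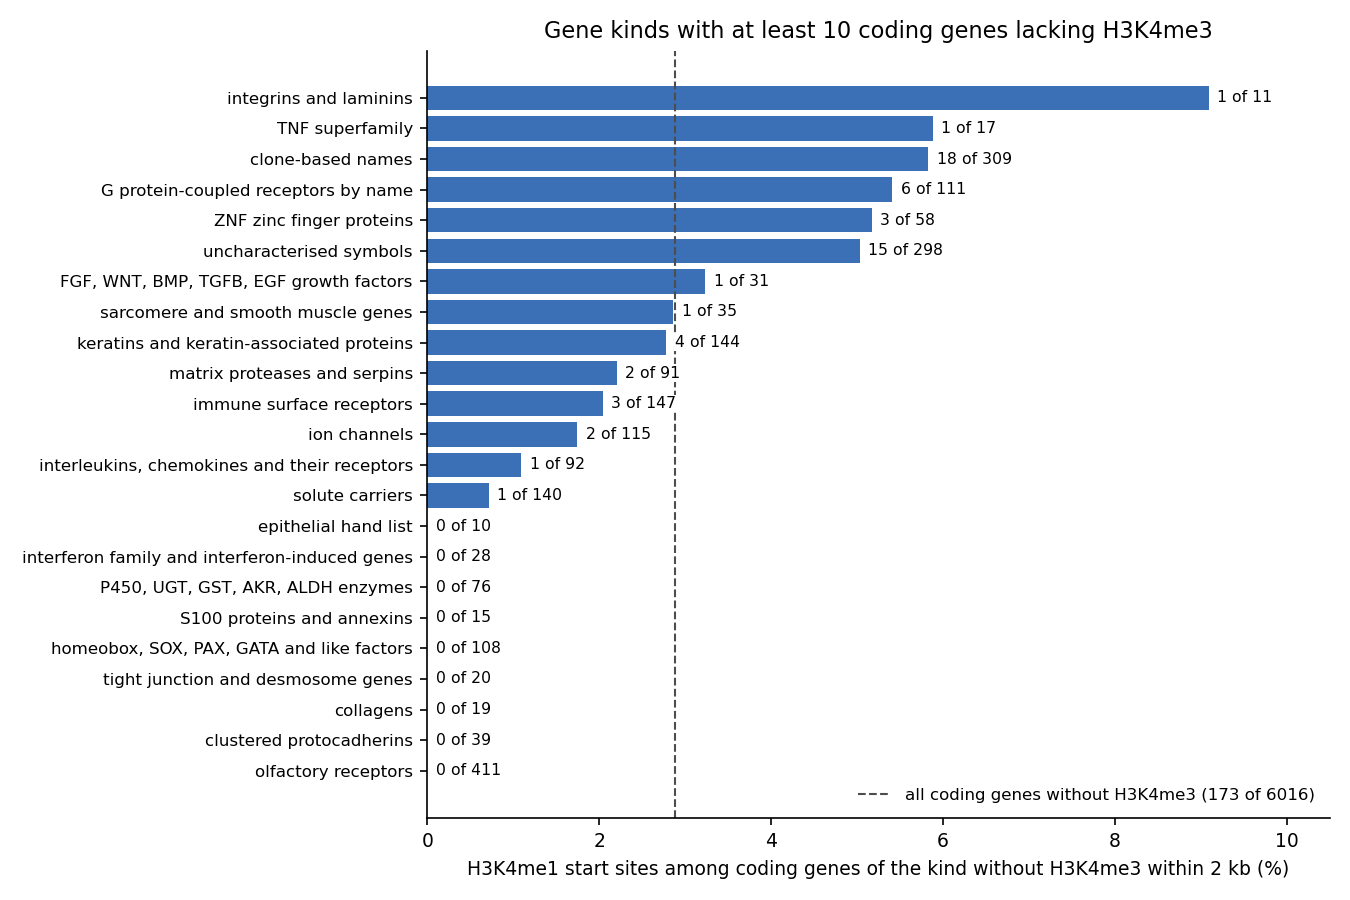
Percentage of coding genes with an H3K4me1 start site among the genes of each kind that lack H3K4me3 within 2 kb, for kinds with at least 10 such genes. Numbers at the bars give the counts, and the dashed line is the 2.88% over all 6016 such genes. Olfactory receptors stand at 0 of 411.

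Ordered by role, with groups and further names chosen after the list was known, the genes began with secreted signals. Over all 173 genes 69.4% had H3K27Ac and 39.9% had FAIRE, and the counts by role are read beside these shares. H3K27Ac was found at 11 of 15 secreted signals, 8 of 11 receptors, 3 of 6 channels, 9 of 13 matrix and protease genes and 12 of 16 epithelial and hair proteins, and FAIRE at 6, 5, 1, 4 and 9 of them. In the smaller groups H3K27Ac was found at 4 of 6 leukocyte, 2 of 4 muscle, 4 of 5 photoreceptor and 3 of 4 germ cell proteins and at 7 of 9 metabolic enzymes and transporters, and FAIRE at 2, 0, 2, 3 and 2 of them. No role is read as set apart from counts this small. TNFSF18 (ENSG00000120337), the ligand of the T cell receptor GITR, had an H3K4me1 score of 789, an H3K27Ac score of 1546 and a FAIRE height of 62.5. UCN2, a stress peptide of the corticotropin-releasing family, reached an H3K27Ac score of 3100, in a peak that also covers a start site with H3K4me3. IL4 (ENSG00000113520), the cytokine of type 2 helper T cells, had 379, with a FAIRE height of 85.2. EGF (ENSG00000138798), the ligand of the EGF receptor, had the lowest H3K27Ac score of all, 58.2, and the nearest FAIRE peak was 66968 bp away. SPP1, which encodes osteopontin, had neither H3K27Ac nor FAIRE, with the nearest peaks at 2827 bp and 1622 bp, respectively.

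TFF1 (ENSG00000160182), an estrogen-responsive trefoil peptide of the luminal breast, was the gene from the luminal list of 15. Its start site on chromosome 21 had an H3K4me1 score of 106, an H3K27Ac score of 79.4 and a FAIRE peak of height 96.5. Its neighbour TFF2, a trefoil peptide of the stomach, had an H3K27Ac score of 175 and a FAIRE height of 34.3. From TFF1 and TFF2 it was 128548 and 115257 bp to an H3K4me3 peak. Of the luminal list, 2 genes had no H3K4me3 within 2 kb, and TFF1 was 1 of them. Of the epithelial list of 34, 10 genes had no H3K4me3 within 2 kb, and none of these had an H3K4me1 start site. Both counts are too small to set beside the 2.88%.

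Receptors came next. ADGRF1 (ENSG00000153292), an adhesion receptor coupled to G proteins, had an H3K27Ac score of 3100 over a peak of 8658 bp and its nearest FAIRE peak at 1796 bp. RXFP1, the receptor of relaxin, had 1546 with a FAIRE height of 76.2. GPR183, which guides B cells by oxysterols, had 234 and 39.7. GPR55, a receptor for lysophospholipids, had neither H3K27Ac nor FAIRE. F2RL3, a thrombin receptor of platelets, had H3K27Ac at 400 and its nearest FAIRE peak at 10695 bp.

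Channels were fewer. TRPV3 (ENSG00000167723), a warmth-activated cation channel of keratinocytes, had an H3K27Ac score of 365, while its relative TRPV2 had neither H3K27Ac nor FAIRE. The water channel AQP5 had an H3K27Ac score of 257, and AQP1 had neither H3K27Ac nor FAIRE, with the nearest H3K27Ac peak at 1679 bp. CALHM3, a channel of taste cells, had an H3K27Ac score of 236 and FAIRE at a height of 47.4.

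Genes of the matrix and of proteolysis formed another group. SPARC (ENSG00000113140), a matrix glycoprotein and the gene from the mesenchymal list of 26, had neither H3K27Ac nor FAIRE within 500 bp. Its start site on chromosome 5 lay 31 bp from the upstream edge of an H3K4me1 peak of 4911 bp, and an H3K27Ac peak began 706 bp away. Of the mesenchymal list, 4 genes had no H3K4me3 within 2 kb, SPARC among them, too few to read as a share. CPA4 had an H3K27Ac score of 2481, and ADAMTS12 (ENSG00000151388), a metalloprotease, 1517. FAP, a serine protease of activated fibroblasts, had 190 with a FAIRE height of 51.5. F13A1, the A subunit of a clotting factor, had 553 with a height of 101. SERPINA1, the inhibitor of neutrophil elastase, had neither.

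Proteins of epithelia and of hair made up the largest group. MACC1, a regulator of the MET receptor linked to metastasis, had an H3K4me1 score of 580 and an H3K27Ac score of 3100, and its nearest H3K4me3 peak was 111328 bp away. LY6K, a cancer-testis surface antigen, had 2889 with a FAIRE height of 116. BNC1 had 3100 without FAIRE. KRTAP21-3, another hair keratin-associated protein, had 2826, and its nearest H3K4me3 peak, at 565323 bp, was the most distant of all 173 genes. LYZ, which encodes lysozyme, had neither H3K27Ac nor FAIRE.

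Genes best known from other differentiated cells were found too. Among leukocyte genes, SELPLG, the selectin ligand PSGL-1, had an H3K27Ac score of 1536 and a FAIRE height of 65.6, and ITGB7 (ENSG00000139626), an integrin of gut-homing lymphocytes, had neither. NR2E3, a nuclear receptor of photoreceptors, had an H3K27Ac score of 1948, and MPP4, a scaffold of the photoreceptor synapse, 3100 with a FAIRE height of 37.5. The muscle gene TRIM55, a ubiquitin ligase of the sarcomere, had 3100 without FAIRE, while MYOZ2 (ENSG00000172399), a protein of the Z-disc, had neither. PIWIL2, which protects germ cells from transposons, had FAIRE within 500 bp and its nearest H3K27Ac peak at 28448 bp. SLC16A12 (ENSG00000152779), a transporter of the monocarboxylate family, combined an H3K4me1 score of 502 with an H3K27Ac score of 83.2. HKDC1, a hexokinase, had an H3K27Ac score of 3100. The 89 genes placed in a role left 84 without one, of which NWD1 had an H3K27Ac score of 3100 and FAM187A one of 1454, in a peak that also covers a start site with H3K4me3.

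H3K4me3 and H3K27Ac covered the start sites of VIM, CD44, CAV1, AXL and ZEB1, chosen as mesenchymal markers of the cell line, with H3K27Ac scores of 3100 at all but CD44, at 1876. VIM and ZEB1 lay in an H3K4me1 peak as well, and FAIRE was found at VIM, CD44 and CAV1. CDH1, the epithelial cadherin, had no H3K27Ac or FAIRE peak within 500 bp of its most 5′ start site, which lay in no H3K4me1 peak, and its nearest H3K4me3 peak was 19569 bp from any start site. H3K4me3 was present at a start site of the luminal genes ESR1, PGR, GATA3 and FOXA1 and of EPCAM, an adhesion molecule of epithelia. At the most 5′ start site, GATA3 and EPCAM of these genes had H3K27Ac, with scores of 383 and 1255. EPCAM was the one with FAIRE there and with that site in an H3K4me1 peak. For ESR1 the most 5′ start site lay 106263 bp from the nearest H3K4me3 peak. H3K27Ac and FAIRE at the ESR1 start site with H3K4me3 were not counted. None of the 11 markers was among the 173 genes.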

How the data were processed

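The 10 samples comprised 2 for each of 4 assays and 2 inputs. Reads were aligned by the authors to GRCh37 (hg19) with BWA, filtered of duplicates and of poorly mapped reads, and combined within an assay. Histone peaks were called with MACS against input and FAIRE peaks with FindPeaks. The submitters' processing notes also name TopHat and HOMER. For histone peaks the score deposited is the log10 of the p-value multiplied by minus 10, and the deposited FAIRE value is the height of the signal as the authors gave it, in a scale not given in the sources used here. Read depth is not in the peak lists used here, and its effect on which peaks were called was not tested.

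Start sites came from GENCODE release 44 mapped to GRCh37, and peak starts were read as counted from 0. Overlaps were counted with numpy 2.4.6 under Python 3.11.15, Wilson intervals with scipy 1.17.1, and figures were drawn with matplotlib 3.10.9. The choice of genes was tested on simulated data against bedtools 2.31.1. No test was run between groups. The members and lists were chosen with earlier results of these data known. Part of the genes were named by a rule: the 6 highest in H3K27Ac score, in FAIRE height and in H3K4me1 score without either, those next to the thresholds, the strongest H3K4me1 score of each kind, hand list members and cell type markers. Further genes were named for their roles after the list was known. Names made of clones or identifiers were counted only. Roles were assigned after the names were seen. Alternatives changed the window, the distance to H3K4me3, the score and height thresholds, the choice of start site and the genes allowed. Some items are not reported here.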

Additional observations from a re-analysis of the deposited data

How the results depend on the processing

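No paired analysis was possible because samples were combined into a single peak list per assay, with no test run. Of 54 values under alternatives, 42 stayed within the 95% interval of the reported value, or within 1.5 times it for the number of genes; some of these settings could not alter the value. With the start base alone the H3K27Ac share was 60.7%, the FAIRE share 26.6%, neither 36.4% and both 23.7%. With 2 kb on each side they were 78.6%, 65.9%, 12.7% and 57.2%. Keeping only FAIRE peaks as tall as the median of 61.1 or taller gave a FAIRE share of 27.2% and both at 24.9%. Taking any start site of the gene inside an H3K4me1 peak gave 308 genes in place of 173, because more sites could qualify, with an H3K27Ac share of 69.2%. For distal H3K4me1 peaks, requiring the peak centre inside the H3K27Ac peak gave 67.3%. Histone peaks of p at or under 1e-10 left 123 genes, 69.9% of them with H3K27Ac. Alternatives chosen after seeing the data gave H3K27Ac shares of 68.6% to 69.3% and FAIRE shares of 38.3% to 39.2%. The lists do not give weak signal below the peak callers' thresholds, so a missing peak is not a missing signal. Gene expression was not used here.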

Other observations

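On chromosome X, which the choice of genes left out, 2 of 869 coding genes (0.230%) met the same conditions. They were CLDN2, a pore-forming claudin of leaky epithelia, and a gene named only by its identifier. An H3K27Ac peak was present at 1 of them and a FAIRE peak at 1. Across chromosomes 1 to 22 the share of coding genes ran from 0.375% on chromosome 9, with 3 of 799, to 2.18% on chromosome 21, with 5 of 229. TFF1, TFF2 and KRTAP21-3 are among those on chromosome 21. MKKS, a chaperonin-like gene, entered the list through 1 of several annotated genes of that name, and its start site had an H3K27Ac score of 1410 at 12097 bp from the nearest H3K4me3 peak.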
